A study of Mus musculus with 2 samples.

Results

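Chemokine receptors are G protein-coupled receptors that steer leukocytes along gradients of small secreted chemokines. The 9 receptor genes described here, Ccr1, Ccr2, Ccr3, Ccr4, Ccr6, Ccr8, Cxcr3, Cxcr4 and Cxcr6, encode the receptors through which inflamed and peripheral tissues recruit or hold leukocytes. On regulatory T cells (Tregs), Ccr4, Ccr6, Ccr8, Cxcr3 and Cxcr6 are the receptors usually linked to positioning in barrier and inflamed tissue, whereas Ccr1, Ccr2 and Ccr3 are best known from monocytes, macrophages and eosinophils. The genes were taken by symbol, and all 9 were found among the 24346 symbols listed in each of the 2 libraries.

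The libraries were made from GFP+CD4+ cells of Foxp3-DTR-GFP (FDG) mice, in which the endogenous Foxp3 locus drives GFP, so that GFP marks cells expressing the transcription factor of Tregs. All mice had received bleomycin (BLM), a drug that injures the lung and leads to fibrosis, at 50 μg into the trachea, and were described as 10 to 16 weeks old. On day 15, cells were sorted from spleen and from lung, and material from 3 mice went together into 1 library of splenic Tregs and 1 library of lung Tregs. Both groups therefore share the genotype, the drug and the day, and uninjured lung was not analysed here. The comparison asks how Tregs of the injured lung differ from those of the spleen of such mice.

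Levels are given in FPKM, the fragments of a gene per kilobase of exon, scaled to the mapped fragments of the library, which allows genes of different length to be compared. Each tissue has 1 library, so the spread between replicates is unknown and p-values are not given. The intervals below are 95% intervals from estimated reads and cover counting error only. About 9.86e+06 reads in spleen and 1.29e+07 in lung were estimated to lie behind the FPKM. Genes of T cells were present at similar levels in both libraries, with a summed level of 4353 FPKM in spleen and 4215 in lung for 8 genes. Foxp3 itself stood at 18.7 FPKM in splenic Tregs and at 41.8 in lung Tregs. Other Treg genes did not all follow it. Of 9 Treg genes with Foxp3 among them, 4 were higher in lung and 5 lower. Their median log2 ratio of lung to spleen was -0.01. Ctla4 was among the higher (221 and 601 FPKM), and Il2ra (89.4 and 59.1 FPKM) and Lrrc32 (69.4 and 30.4 FPKM) were among the lower. Genes of other cells were also present, and their values are given below.

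In lung Tregs, 8 of the 9 receptors had higher FPKM than in spleen Tregs and 1, Ccr3, had lower FPKM. More than 2-fold higher in lung were 6 receptors, Ccr1, Ccr2, Cxcr6, Ccr8, Ccr4 and Ccr6, and more than 2-fold lower was Ccr3. Both counts of higher receptors depended on the scaling between the libraries. The count of 6 was 4 after rescaling to TPM, which brings each library to the same sum. It was 5 with equal upper quartiles and 3 with equal Foxp3. As for the count of 8, Cxcr3 was lower in lung with TPM (log2 ratio -0.17). With equal Foxp3, both Cxcr3 (-0.90) and Cxcr4 (-0.53) were lower. Over all 24346 listed genes, 11% were more than 2-fold higher in lung and 11.7% more than 2-fold lower. All 9 receptors reached 10 FPKM in the higher library, and among the 7279 genes that did so these shares were 11.6% and 9.15%. Among the 12094 genes that reached 1 FPKM in the higher library, they were 17.8% and 15.5%. The median log2 ratio of lung to spleen was 1.29 for the 9 receptors and 0.05 for the 7279 genes that reached 10 FPKM, and with equal Foxp3 the former was 0.14. Only 1 of the 9 receptors, Ccr1, was more than 20-fold higher in lung, as were 1.62% of all genes, 3.27% of those at 1 FPKM or more and 2.02% of those at 10 FPKM or more. None of the 9 was more than 20-fold lower, against 1.17%, 2.35% and 0.934% of the same genes. Both counts depended on the setting. The call of Ccr1 was lost with TPM, equal upper quartiles, equal Foxp3 and a pseudocount of 1 FPKM, whereas Ccr3 passed 20-fold lower with TPM, equal upper quartiles and equal Foxp3. In a bulk library, a larger share of cells carrying a receptor cannot be told apart from more of its RNA per cell.

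**Figure D1:**
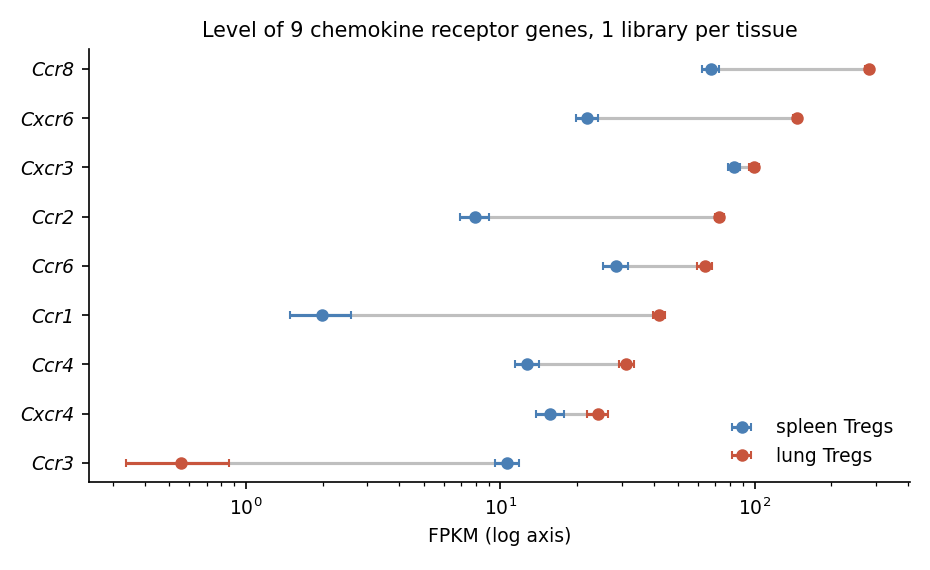
Level of each receptor gene in FPKM on a log axis, with spleen Tregs in blue and lung Tregs in red, 1 library each. Bars are 95% counting intervals from estimated reads. Ccr8 lies highest in lung at 280.0 FPKM, and Ccr3 alone lies lower in lung (0.55 FPKM) than in spleen (10.6 FPKM).

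The order of the receptors differed between the tissues. In spleen Tregs, Cxcr3 stood highest at 82.8 FPKM, followed by Ccr8 at 67.2, Ccr6 at 28.4 and Cxcr6 at 22.0. Below them came Cxcr4 at 15.7 FPKM, Ccr4 at 12.8, Ccr3 at 10.6, Ccr2 at 7.96 and Ccr1 at 1.99. The counting intervals of Cxcr4 and Ccr4 overlapped, as did those of Ccr4 and Ccr3, whereas all other neighbours in the order were apart. In lung Tregs, Ccr8 stood highest at 280.0 FPKM, followed by Cxcr6 at 147, Cxcr3 at 99.2, Ccr2 at 72.5 and Ccr6 at 63.6. The lowest were Ccr1 at 42.1 FPKM, Ccr4 at 31.3, Cxcr4 at 24.2 and Ccr3 at 0.554, and no neighbouring intervals overlapped. Levels of the receptors spanned 41.7-fold in spleen and 505-fold in lung, the latter because of the low value of Ccr3. Among all listed genes, Ccr8 ranked 1517 in spleen and 451 in lung, and Cxcr6 ranked 4155 and 831.

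Of the 9 genes, 6 lie on chromosome 9 of GRCm38 (mm10), and 4 of these, Cxcr6, Ccr1, Ccr3 and Ccr2, lie close together in a cluster of chemokine receptor genes. In the GENCODE M21 annotation, Cxcr6 runs from 123806475 to 123811760 on the plus strand, Ccr1 from 123962124 to 123968692 on the minus strand, Ccr3 from 124021972 to 124031689 on the plus strand and Ccr2 from 124101950 to 124113557 on the plus strand. Ccr4 (114490316 to 114504916, minus strand) and Ccr8 (120092114 to 120094906, plus strand) lie elsewhere on chromosome 9. Cxcr4 lies on chromosome 1 (128588199 to 128592293, minus strand), Ccr6 on chromosome 17 (8236043 to 8257141, plus strand) and Cxcr3 on chromosome X (101731535 to 101734269, minus strand). The coding sequence of Cxcr3 and of Cxcr4 is split over 2 exons, and that of the other 7 receptors lies in 1 exon. No exon of another annotated gene overlapped those of the 9 receptors. Of the stretches of 75 bases in the transcript of Ccr2, the length of a read, 2.67% were shared with a neighbouring receptor gene, and Ccr1 and Ccr3 shared none with any other gene.

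The RefSeq sequences before the gene starts are shown for Ccr3 and Ccr4, which differed between the tissues in opposite directions, and for Ccr8 and Cxcr6, the highest receptors of lung Tregs. Each is the 250 bases before the RefSeq start in GRCm38.p6, written 5′ to 3′ on the strand of the gene. Capitals mark matches, on either strand, to the AP-1 motif TGANTCA, the RUNX motif TGTGGT, the T-box motif TCACACC and the GATA motif AGATAA, which do not overlap each other here.
Ccr3, chr9:124021721-124021970, plus strand: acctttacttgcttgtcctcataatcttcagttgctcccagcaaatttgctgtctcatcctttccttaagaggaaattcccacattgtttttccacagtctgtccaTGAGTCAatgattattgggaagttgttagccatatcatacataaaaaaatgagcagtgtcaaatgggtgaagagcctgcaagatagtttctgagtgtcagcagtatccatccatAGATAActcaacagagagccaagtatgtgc
Ccr4, chr9:114496545-114496794, minus strand: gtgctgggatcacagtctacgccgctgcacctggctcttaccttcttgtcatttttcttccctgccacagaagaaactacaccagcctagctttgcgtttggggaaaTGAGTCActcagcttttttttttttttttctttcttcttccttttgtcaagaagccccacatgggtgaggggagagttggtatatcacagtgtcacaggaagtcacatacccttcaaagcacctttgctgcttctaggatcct
Ccr8, chr9:120091883-120092132, plus strand: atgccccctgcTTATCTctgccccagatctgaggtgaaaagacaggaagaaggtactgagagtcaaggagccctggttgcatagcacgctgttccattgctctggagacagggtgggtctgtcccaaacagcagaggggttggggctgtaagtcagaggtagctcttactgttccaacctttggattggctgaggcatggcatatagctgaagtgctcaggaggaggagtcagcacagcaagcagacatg
Cxcr6, chr9:123806227-123806476, plus strand: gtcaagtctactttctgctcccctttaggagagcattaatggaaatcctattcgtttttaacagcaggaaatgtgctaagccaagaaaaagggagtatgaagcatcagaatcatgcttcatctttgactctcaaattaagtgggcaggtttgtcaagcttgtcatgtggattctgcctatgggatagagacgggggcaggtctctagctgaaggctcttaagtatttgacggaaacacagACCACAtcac
The RefSeq start of Ccr4 lies within the GENCODE span given above, whose upper end belongs to a longer transcript model, so its window lies inside that span. An AP-1 motif stood 144 bases before the RefSeq start of Ccr3 and 143 bases before that of Ccr4, on the plus strand of the gene in both. The window of Ccr3 also held a GATA motif, as did that of Ccr8, and the window of Cxcr6 held a RUNX motif 10 bases before the start. Among 32851 windows of this length, 6.75% held the AP-1 motif, 14.0% the RUNX motif, 3.33% the T-box motif and 9.99% the GATA motif. The 10 windows of the 9 receptors, with 2 for Ccr6, held AP-1 in Ccr3 and Ccr4, RUNX in Ccr1, Cxcr3 and Cxcr6, and GATA in Ccr2, Ccr3, Ccr8 and 1 window of Ccr6. No window held the T-box motif, and the window of Cxcr4 held none of the 4. Ccr4 was not the only gene whose window reached into its GENCODE span. Most of the window of Ccr2 (124101933 to 124102182) did so, as did part of that of Cxcr3 (101734148 to 101734397). The Ccr6 window with the GATA motif (8242276 to 8242525) lay wholly inside. The motif matches of Ccr2, Cxcr3 and Ccr6 fell within these spans. The windows of Ccr8 and Cxcr6 reached into theirs only at their last bases.

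Ccr8, the receptor for Ccl1 and Ccl8 that is known from Tregs of nonlymphoid tissue, lay at 67.2 FPKM in spleen Tregs and 280.0 in lung Tregs, which is 4.17-fold higher in lung (interval 3.84 to 4.54). About 673 reads in spleen and 3187 in lung lay behind these values. Of the 1159 genes with a mean level within 2-fold of that of Ccr8, 3.11% had a ratio at least as high. Relative to Cd4, Ccr8 was at 0.344 in spleen and 1.57 in lung, and relative to Foxp3 at 3.58 and 6.70. Ccr8 was thus higher in lung on both scales.

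Cxcr6, the receptor for the transmembrane chemokine Cxcl16 and a marker of T cells resident in tissue, stood at 22.0 FPKM in splenic Tregs and at 147 in lung Tregs. This is 6.68-fold higher in lung (interval 6.0 to 7.45), with 1.38% of 2464 genes of like mean level at least as far up. It rested on about 385 reads in spleen and 2920 in lung. The CD8 T cell genes Cd8a (4.13 and 12.2 FPKM) and Cd8b1 (19.9 and 74.8 FPKM) were higher in the lung library as well. Their summed level was 24.0 FPKM in spleen and 86.9 in lung, and their part in the values of Cxcr6 was not tested.

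Ccr4 and Ccr6 were higher in lung by smaller factors. Ccr4, the receptor for Ccl17 and Ccl22, lay at 12.8 FPKM in spleen Tregs and 31.3 in lung Tregs, 2.45-fold higher (interval 2.17 to 2.79). Ccr6, the receptor for Ccl20 that is shared by Tregs, Th17 cells and B cells, stood at 28.4 FPKM in splenic Tregs and at 63.6 in lung Tregs, 2.24-fold higher (interval 1.96 to 2.55). Among genes of like mean level, 4.97% for Ccr4 and 5.45% for Ccr6 had a ratio at least as high. Relative to Foxp3, which was itself higher in lung, the difference was nearly lost. Ccr6 was at 1.52 of the Foxp3 level in both libraries, and Ccr4 was at 0.680 in spleen and 0.749 in lung. Relative to Cd4, Ccr6 was at 0.146 in spleen and 0.356 in lung, and Ccr4 at 0.0653 and 0.175. Markers of B cells, which also carry Ccr6, were lower in lung in 8 of 8 cases and more than 2-fold lower in 5. The summed level of these markers was 279 FPKM in spleen and 140.4 in lung, and their part in the values of Ccr6 was not tested.

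Cxcr3 and Cxcr4 differed least. Cxcr3, the receptor for the interferon-induced chemokines Cxcl9, Cxcl10 and Cxcl11, lay at 82.8 FPKM in spleen Tregs and 99.2 in lung Tregs, 1.20-fold higher (interval 1.11 to 1.29). Among 1714 genes of like mean level, 41.8% had a ratio at least as high. Cxcr4, the receptor for Cxcl12, stood at 15.7 FPKM in splenic Tregs and at 24.2 in lung Tregs, 1.54-fold higher (interval 1.32 to 1.80), and 15.7% of genes of like mean level had a ratio at least as high. The direction of both depended on the scaling between the libraries. Rescaling to TPM gave a log2 ratio of -0.17 for Cxcr3 and 0.19 for Cxcr4, and rescaling to equal Foxp3 gave -0.90 and -0.53.

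Since ratios between genes of one library do not depend on such scaling, the receptors were also compared with each other. Ccr8 was at 0.811 of the level of Cxcr3 in spleen Tregs and at 2.82 times its level in lung Tregs. Cxcr6 was at 0.266 of the level of Cxcr3 in spleen and at 1.48 times its level in lung. The summed FPKM of the 9 receptors was 249 in spleen and 760.4 in lung. Cxcr3 made up 33.2% of this sum in spleen and 13% in lung, whereas Ccr8 made up 26.9% and 36.8%, and Cxcr6 8.82% and 19.3%. The highest 3 receptors together held 71.5% of the sum in spleen and 69.2% in lung. Cxcr3 and Ccr8 were among these 3 in both libraries, joined by Ccr6 in spleen and by Cxcr6 in lung.

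**Figure D2:**
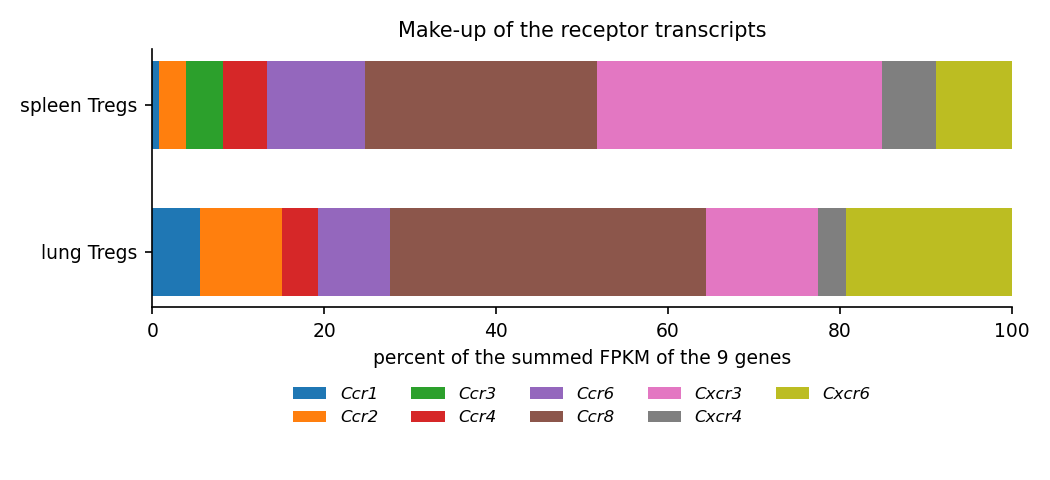
Share of each receptor in the summed FPKM of the 9 genes, in percent, with 1 bar per library. The share of Cxcr3 is 33.2% in spleen and 13% in lung, and those of Ccr8 and Cxcr6 are larger in lung.

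Ccr1 and Ccr2 showed the highest ratios of the 9 receptors. Ccr1, a receptor for Ccl3, Ccl5, Ccl6 and Ccl9 that is abundant on myeloid cells, lay at 1.99 FPKM in spleen Tregs and 42.1 in lung Tregs, 21.2-fold higher (interval 16.2 to 28.4). It rested on about 54 reads in spleen and 1302 in lung, and 0.955% of 3770 genes of like mean level had a ratio at least as high. Ccr2, the receptor for Ccl2 and Ccl12 through which monocytes leave the bone marrow, stood at 7.96 FPKM in splenic Tregs and at 72.5 in lung Tregs, 9.11-fold higher (interval 7.97 to 10.5). About 230 reads in spleen and 2383 in lung lay behind it, and 1.11% of 3618 genes of like mean level were at least as far up. Both genes and most of the myeloid genes read here stood higher in the lung library. Macrophage markers stood higher in lung in 12 of 12 cases and more than 2-fold higher in 9, and their summed level was 781 FPKM in spleen and 27547 in lung. Lyz2 alone accounted for most of that sum, with 376 FPKM in spleen and 24947 in lung. Less than 2-fold higher were Csf1r (43.8 and 50.1 FPKM), Mrc1 (7.64 and 9.41 FPKM) and Adgre1 (14.6 and 24.3 FPKM). Of 9 monocyte genes, 6 were more than 2-fold higher in lung, among them Ly6c2 (30.7 and 104 FPKM) and Cd14 (11.4 and 277 FPKM), and 2 were more than 2-fold lower, among them Treml4 (22.4 and 6.60 FPKM). Summed levels of epithelial genes (12.8 and 3122 FPKM) and fibroblast genes (0.290 and 47.2 FPKM) were higher in lung as well. The part of myeloid RNA in the values of Ccr1 and Ccr2 was not tested. The level of Ccr1 relative to Ccr2 was 0.249 in spleen and 0.581 in lung.

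Ccr3, the receptor for the eotaxins Ccl11 and Ccl24 and best known from eosinophils, went the other way. It lay at 10.6 FPKM in spleen Tregs and 0.554 in lung Tregs, 19.1-fold lower in lung (interval 12.2 to 31.7). About 337 reads in spleen and 20 in lung lay behind these values. Of 2341 genes of like mean level, 1.79% had a ratio at least as low. In spleen Tregs, Ccr3 was thus above Ccr2 and Ccr1, and in lung Tregs it was the lowest of the receptors. Of 10 genes of eosinophils, basophils and mast cells, 4 were more than 2-fold lower in lung. These were Prg2 (1.23 FPKM in spleen and 0 in lung), Il5ra (0.634 and 0.0762), Cpa3 (0.620 and 0.0682) and Ms4a2 (0.608 and 0.0383), all of them far below Ccr3 in spleen. The defining granule genes Epx of eosinophils and Mcpt8 of basophils were listed at 0 in both libraries. More than 2-fold higher in lung were 3 other genes of this list, with Ear2 at 9.24 FPKM in spleen and 205 in lung, Ear1 at 0 and 13.6, and Siglecf at 0.0438 and 8.06, and alveolar macrophages express Siglecf and Ear genes as well. The part of such cells in the values of Ccr3 was not tested.

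**Figure D3:**
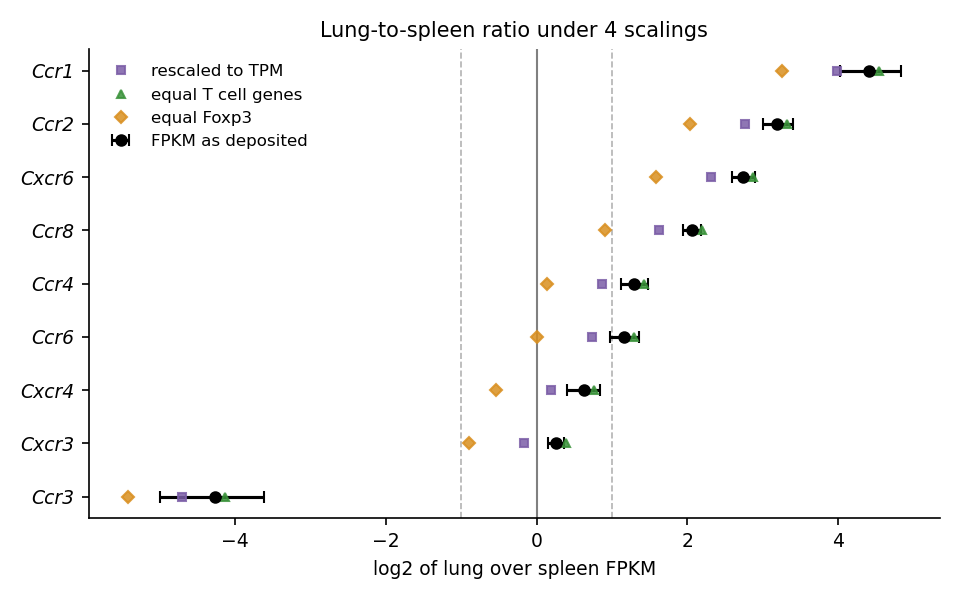
Log2 ratio of lung to spleen FPKM for each receptor. Black points with 95% counting intervals are the deposited FPKM, coloured points are the same values after 3 rescalings, and dashed lines mark 2-fold. Ccr1, Ccr2 and Cxcr6 stay more than 2-fold higher and Ccr3 more than 2-fold lower under each scaling shown, whereas Cxcr3 and Cxcr4 lie on either side of 0.

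Neighbours in the genome differed in direction. Along the cluster on chromosome 9, Ccr3 lay between Ccr1 and Ccr2, and had a log2 ratio of -4.26 against 4.41 for Ccr1 and 3.19 for Ccr2. Starting from Cxcr6, Ccr1 began 156 kb, Ccr3 215 kb and Ccr2 295 kb further along the chromosome. Other receptor genes of the cluster had small values in both libraries. Ccr9, the gut-homing receptor gene on the other side of Cxcr6, stood at 4.67 FPKM in splenic Tregs and at 4.70 in lung Tregs. Xcr1, a receptor of cross-presenting dendritic cells, was at 1.52 and 2.36 FPKM, and Ccr1l1 at 0.154 and 0.

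**Figure D4:**
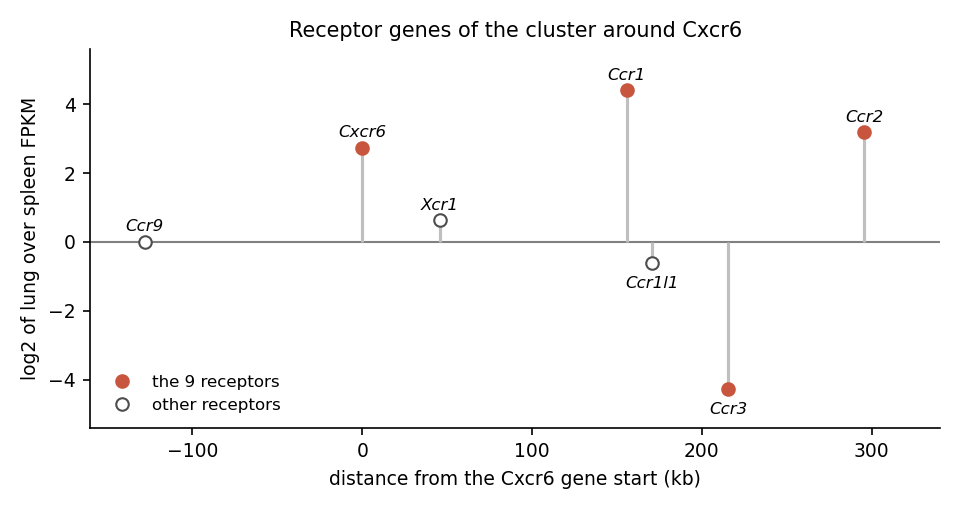
Log2 ratio of lung to spleen FPKM of 7 receptor genes along the chromosome 9 cluster, by the distance of their lower coordinate from that of Cxcr6 in kb. Filled points belong to the 9 receptors and open points to other receptors. Ccr3, at -4.26, stands between Ccr1 at 4.41 and Ccr2 at 3.19.

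Among the listed genes were 16 other chemokine and atypical or related receptors. Of these, 7 were more than 2-fold higher in lung and 2 more than 2-fold lower, beside 11% and 11.7% of all genes. Their median log2 ratio was 0.68. For the 12 of them that reached 1 FPKM in the higher library it was 1.28, close to the 1.29 of the 9 receptors. Ccrl2, an atypical receptor that binds chemerin, lay at 11.6 FPKM in spleen Tregs and 105 in lung Tregs, and Ackr3, a scavenger of Cxcl12, at 0.475 and 4.42. Cx3cr1, the fractalkine receptor of monocytes and effector cells, was at 1.17 and 3.14 FPKM. The lymph node homing receptor Ccr7 exceeded every one of the 9 receptors in either library, with 311 FPKM in spleen Tregs and 361 in lung Tregs. Cxcr5, which leads cells to B cell follicles, stood at 34.7 FPKM in splenic Tregs and at 22.5 in lung Tregs. The 2 genes more than 2-fold lower in lung were the atypical receptors Ackr2 (0.824 and 0 FPKM) and Ackr1 (0.203 and 0 FPKM). Both were low in spleen too, and the floor of 0.1 FPKM set the lung side of both ratios.

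The ligand genes of these receptors were read in the same libraries. Of 20 ligand genes, 12 were more than 2-fold higher in lung and 0 more than 2-fold lower, beside the 11% and 11.7% of all genes. Among the 12 was Ccl4 (19.2 FPKM in spleen and 60.0 in lung), which was not paired with any of the 9 receptors here. For Ccr1, Ccl6 lay at 17.4 FPKM in spleen Tregs and 1545 in lung Tregs and Ccl9 at 1.27 and 77.3. Ccl5, made by T cells and NK cells and a ligand of Ccr1 and Ccr3, stood at 160 FPKM in splenic Tregs and at 352 in lung Tregs. For Ccr2, Ccl2 lay at 0.161 FPKM in spleen Tregs and 12.4 in lung Tregs, and Ccl12 at 0 and 9.07. These ligands of Ccr1 and Ccr2 thus stood higher in the library in which the receptors were higher. For Ccr4, Ccl17 stood at 0.315 FPKM in splenic Tregs and at 19.2 in lung Tregs and Ccl22 at 0.542 and 10.2. For Ccr8, Ccl8 was at 0 and 43.5 FPKM and Ccl1 at 2.27 and 4.58, and for Cxcr6, Cxcl16 was at 2.28 and 50.3. Ccr4, Ccr8 and Cxcr6 and these 5 ligands all stood higher in lung. For Ccr3 the directions were opposite, with Ccl24 at 0.803 FPKM in spleen and 21.1 in lung, while Ccl11 was listed at 0 in both. Low in both libraries were Cxcl9 (0.429 and 0.410 FPKM), Cxcl12 (0.0578 and 0.0573 FPKM) and Ccl20 (0.163 and 0 FPKM), the ligands of Cxcr3, Cxcr4 and Ccr6, whereas Cxcl10 was at 16.9 and 26.4. Macrophage genes stood higher in the lung library, as did most of the ligands. Which cells of the sort held the ligand RNA was not tested.

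**Figure D5:**
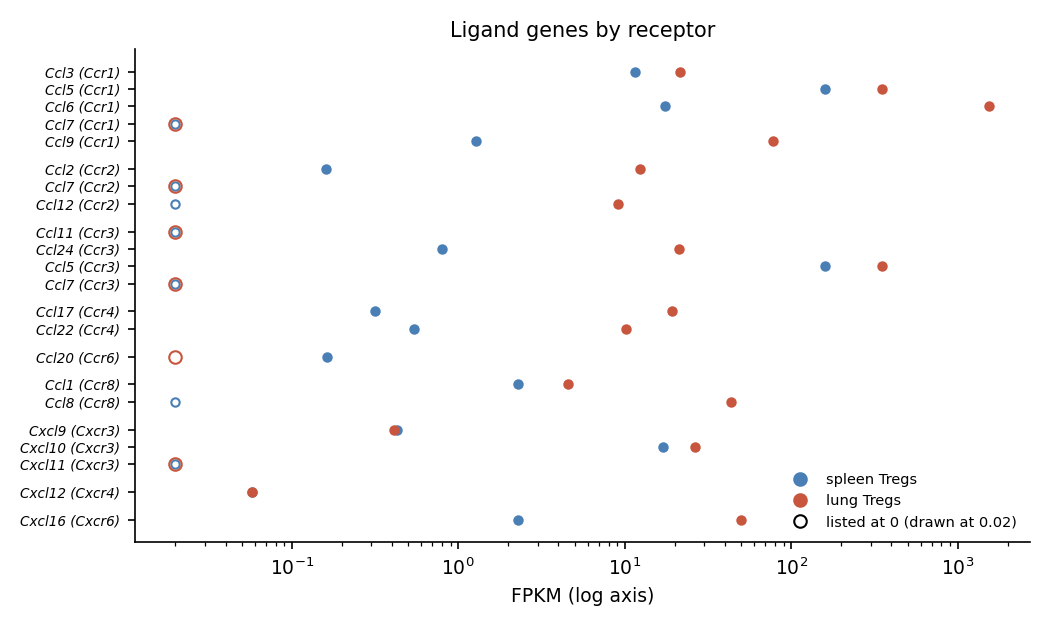
FPKM of ligand genes on a log axis, grouped by receptor (in brackets), with spleen Tregs in blue and lung Tregs in red. Open points are listed at 0 and drawn at 0.02. Ccl6 at 1545 FPKM in lung is the highest, and Cxcl12 and Ccl20 lie near the left edge.

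Transcription factors that are tied to the receptors in helper T cell biology did not all go along with them. Tbx21, which encodes T-bet, a known activator of Cxcr3, lay at 8.35 FPKM in spleen Tregs and 7.83 in lung Tregs, and Gata3, linked to Ccr4 and Ccr8, at 69.1 and 77.3. Of 8 such factors, 5 were more than 2-fold higher in lung, among them Foxp3 and the effector Treg factors Batf (117 and 244 FPKM), Irf4 (6.57 and 16.2 FPKM) and Prdm1.

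Genes that couple the receptors to the cell or switch them off were read as well. Of 16 such genes, 3 were more than 2-fold higher in lung and 1 more than 2-fold lower, beside 11% and 11.7% of all genes, with a median log2 ratio of -0.17. Gnai2, the main Gαi subunit of T cells, lay at 329 FPKM in spleen Tregs and 318 in lung Tregs, and Dock2, which drives lymphocyte migration, at 128 and 111. Of 4 kinases that phosphorylate active receptors, Adrbk1 was at 69.6 and 45.3 FPKM and Grk6 at 142 and 85.8, while the low genes Adrbk2 (0.607 and 2.66 FPKM) and Grk5 (0.815 and 0 FPKM) differed by more than 2-fold in opposite directions. The β-arrestin gene Arrb2 was at 49.6 and 33.1 FPKM. Rgs1, which shortens Gαi signals from chemokine receptors, stood at 394 FPKM in splenic Tregs and at 742 in lung Tregs, and Rgs2 at 50.7 and 206.

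The genes closest to each receptor in log2 FPKM over the 2 libraries were also sought among all listed genes. Nearest to Ccr2 was Mgst1, a glutathione transferase gene (7.61 FPKM in spleen and 74.3 in lung, distance 0.07). Nearest to Cxcr6 was Dgat1, of triglyceride synthesis (23.1 and 141 FPKM, distance 0.09), nearest to Ccr8 was the glutaredoxin gene Glrx (74.1 and 268 FPKM, distance 0.16), and nearest to Ccr1 was Ier3 (2.41 and 45.1 FPKM, distance 0.29). With only 2 libraries such likeness means only a similar level in both.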

How the data were processed

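Per the labels and the methods, GFP+CD4+ cells of FDG mice were sorted from spleen and lung on day 15 after BLM, and cDNA was made with SMART-Seq HT and sequenced as 75-base single-end reads. SMART-Seq HT amplifies cDNA by PCR without molecular identifiers, so counted reads are not independent molecules. The authors mapped reads to mm10 with TopHat2 2.1.1, Bowtie2 2.2.8 and SAMtools 0.1.18 and deposited FPKM from Cuffdiff 2.2.1. The annotation, strand setting and scaling between libraries are not given in the sources used here.

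Ratios are lung over spleen, after raising FPKM under 0.1 to 0.1. Folds over 2 and over 20 were counted. Reads were estimated from GENCODE M21 transcript lengths, found for 23650 symbols (97.1%), with fragments of mean 200 and SD 80. At an effective length of 1 kb, 1 read was worth 0.0965 FPKM in spleen and 0.0850 in lung. Where 1 transcript length was known and 1 to 10 reads were estimated, 72.6% of genes in spleen and 74.7% in lung fell within 0.1 of a whole read. Exact Poisson intervals were used for levels and Clopper-Pearson intervals for ratios, at 95%. Ccr6 has 7 transcripts of 1172 to 1755 nt, so its reads are approximate. The steps were tested on simulated data. Promoter windows are from RefSeq (GRCm38.p6) and matched all 9 genes.

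Members, gene lists and motifs were chosen with earlier results of these data known, and motifs after the sequences were seen. The named genes were the 9 receptors, genes of lists of other receptors, ligands, coupling genes and lineage factors, the nearest gene of each receptor, and cell type markers. Some genes of these lists are counted but not reported by name here. Lists of NK cells, neutrophils, dendritic cells, epithelium, fibroblasts and endothelium had summed levels of 156, 479, 322, 12.8, 0.290 and 54.9 FPKM in spleen and 261, 1200, 414, 3122, 47.2 and 40.1 in lung. Single genes held most of several of these sums, which therefore do not measure the amount of the named cells. They were Nkg7 for NK cells (134 FPKM in spleen and 236 in lung) and S100a8 for neutrophils (276 and 804). For dendritic cells it was Ccr7 (311 and 361). For endothelium it was Pecam1 (54.8 and 31.7), and for epithelium Epcam in spleen (8.75) and Scgb1a1 in lung (3021). For 9 Treg genes, the sums were 1946 and 3037, although 5 of the 9 were lower in lung. Alternatives were other floors and pseudocounts, rescalings and a filter at 1 FPKM. Computations ran in Python 3.11.15, using scipy 1.17.1, pandas 2.3.3, numpy 2.4.6 and, for plots, matplotlib 3.10.9.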

Additional observations from a re-analysis of the deposited data

How the results depend on the processing

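Ccr1, Ccr2 and Cxcr6 stayed more than 2-fold higher and Ccr3 more than 2-fold lower in lung under all 10 alternatives, with log2 ratios of 3.25 to 4.54, 2.03 to 3.32, 1.58 to 2.87 and -5.42 to -2.90. Ccr8 stayed so in 9, Ccr4 in 8 and Ccr6 in 7 of them. These tallies include settings that could not change the result. All 9 receptors were above 0.1 FPKM in both libraries and above 1 FPKM in the higher library. The floor of 0.01 FPKM and the filter at 1 FPKM therefore left their ratios as they were. The floor of 1 FPKM could change only the ratio of Ccr3. The ratios of Cxcr3 and Cxcr4 ran from -0.90 to 0.40 and from -0.53 to 0.76. Rescaling to TPM lowered the log2 ratios of genes at 1 FPKM or more in both libraries by a median shift of -0.43, rescaling to equal upper quartiles by -0.18 and to equal Foxp3 by -1.16, whereas equal T cell genes moved them by 0.13. The count of receptors over 2-fold higher was 4 with TPM, 5 with equal upper quartiles and 3 with equal Foxp3, against 6. Their median log2 ratio was 0.86 with TPM, 1.12 with equal upper quartiles and 0.14 with equal Foxp3. The count over 20-fold higher fell from 1 to 0 with a pseudocount of 1 FPKM, TPM, equal upper quartiles and equal Foxp3. The count over 20-fold lower rose from 0 to 1, by Ccr3, with TPM (log2 ratio -4.69), equal upper quartiles (-4.44) and equal Foxp3 (-5.42). With the shortest and longest transcript, Ccr6 had 284 to 456 reads in spleen and 722 to 1159 in lung. Cuffdiff's own scaling is not known, so no scaling can be preferred from these values. No paired analysis was possible because each tissue has 1 library and no test was made. Ccr3 in lung rested on 20 reads and Ccr1 in spleen on 54.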
